A study of Mus musculus with 9 samples.

Results

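Adar, Adarb1 and Adarb2, the 3 members of the gene family of RNA editing enzymes, were followed through the cholinergic neurons of the adult mouse spinal cord. They were chosen by name, with their levels in these clusters known, and are 3 of the 21457 features of the expression matrix. Levels were described over the 3 classes of cholinergic neurons and the 21 clusters that the authors assigned to 16042 nuclei. Because the high level of Adarb2 in interneurons was among the values that selected them, differences of these genes between classes and clusters are given as descriptions with no test.

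Editing enzymes of this family bind double-stranded RNA and turn adenosine into inosine, which the ribosome and sequencing chemistry both read as guanosine. Adar encodes ADAR1, which edits mostly repeats in non-coding RNA and keeps the cell's own double-stranded RNA from being taken for viral RNA. Adarb1 encodes ADAR2, which recodes transcripts of ion channels and receptors. Its best known target is the glutamine/arginine site of Gria2, a subunit of the AMPA glutamate receptor, where editing makes the channel nearly impermeable to calcium, and low editing of this site has been studied in degenerating motor neurons. Adarb2 encodes ADAR3, which is found mainly in the brain, binds RNA and has no known editing activity of its own, and the gene is widely used to mark a class of cortical interneurons. The values analysed are RNA levels in nuclei. They hold no base calls, so editing itself was not measured.

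Nuclei came from 12 mice of 8 weeks, 6 male and 6 female, with the genotype Chat-iCre:+/wt; SUN-SfGFP:+/wt, in which Cre made from the Chat locus switched on a green fluorescent protein fused to SUN1 of the nuclear envelope. Cre marks a cell for good, so any cell that had ever expressed Chat could be sorted by GFP and the DNA dye DRAQ5. Cervical, thoracic and lumbar/sacral cord of each pool of 4 mice made a library each, which gave 9 libraries of 10x 3′ chemistry, 3 of each region. Replicate 1 pooled 2 males and 2 females, replicate 2 males and replicate 3 females, no mouse was treated, and all libraries carried both alleles. The nuclei comprised 5054 skeletal motor neurons (MNs, clusters S1 to S3), 5613 visceral MNs (V1 to V10) and 5375 cholinergic interneurons (I1 to I8).

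Values were taken to be counts corrected for depth by a model. They were added up per library and class or cluster, where these held 10 nuclei or more, and scaled to a total of 1000000 (CPM). The median total per nucleus ran from 4712 to 16127 corrected counts over libraries and was 4712 to 7175 in the lumbar/sacral ones, and 747 to 2825 nuclei came from each library. Only 33 cell barcodes, or 66 nuclei, occurred in more than 1 library. Class labels went with their markers (mean Tns1 of 381 CPM in skeletal MNs, mean Zeb2 of 387 CPM in visceral MNs and mean Pax2 of 211 CPM in interneurons, with 31.3 CPM or less of each in the other classes), apart from V8, with 7.79 CPM of Zeb2 but 1172 CPM of Fbn2, and I8, with 9.55 CPM of Pax2 but 766 CPM of Mpped2. Hox genes went against 2 region labels. In skeletal MNs the library labelled cervical replicate 2 had 9.04 CPM of Hoxa9 and 82.5 CPM of Hoxc5, near the 11.9 and 15.8 CPM of Hoxa9 in the other thoracic libraries, whereas the library labelled thoracic replicate 2 had 0.629 CPM of Hoxa9, near the 0.145 and 0 CPM of the other cervical ones. Both were left as labelled, and comparisons of cervical with thoracic libraries are given with and without replicate 2.

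All 3 genes are long and their transcripts unlike in place and size. On GRCm38, Adar spans chr3:89715022-89753446 on the plus strand (38.4 kb), Adarb1 spans chr10:77290726-77418270 on the minus strand (128 kb), and Adarb2 spans chr13:8202866-8768747 on the plus strand (566 kb). Adar shares ground with Chrnb2, a nicotinic receptor subunit on the other strand, which had only 6.16 to 6.96 CPM in the 3 classes. No gene of the matrix overlaps Adarb1 or Adarb2. The catalytic centre of these proteins is a deaminase site whose histidine, alanine and glutamate are encoded by the codons in capitals in the coding sequences of GENCODE transcripts, shown because this stretch is what makes the 3 genes a family:
Adar: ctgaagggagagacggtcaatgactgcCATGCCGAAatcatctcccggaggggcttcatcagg
Adarb1: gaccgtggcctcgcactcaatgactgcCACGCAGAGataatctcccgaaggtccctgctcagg
Adarb2: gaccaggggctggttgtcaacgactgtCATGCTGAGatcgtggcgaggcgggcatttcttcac
The Adar codons lie in exon 9 of 15 (window chr3:89746597-89747172, over an intron), those of Adarb1 in exon 6 of 11 (chr10:77313437-77313499) and those of Adarb2 in exon 5 of 10 (chr13:8697694-8697756). Adar and Adarb1 share 40 of the 63 bases, Adarb1 and Adarb2 share 36, and Adar and Adarb2 share 35. All 3 genes, Adarb2 included, encode the same catalytic triplet, and 12 or 13 of the 21 codons of any pair encode the same residue. The site that Adarb1 is best known to recode lies in exon 11 of 16 of Gria2, where the unedited genome carries the glutamine codon in capitals (window chr3:80702653-80706940, minus strand, exons 11 and 12):
Gria2: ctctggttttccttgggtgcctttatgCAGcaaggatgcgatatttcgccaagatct

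Adar was the most even of the 3 genes. Its level in skeletal MNs was 110 CPM in the lowest library, 114 CPM in the median one and 171 CPM in the highest, with a mean of 129 CPM ± 22.0 (SD, n = 9 libraries). Interneurons had 128 CPM ± 20.1 and visceral MNs 118 CPM ± 19.9, so the ranges of all 3 classes overlapped. Within a library the level in interneurons was 0.996 ± 0.0319 times that in skeletal MNs, and skeletal MNs lay above visceral MNs in 8 of 9 libraries, by a ratio of only 1.10 ± 0.0913. Over the 21 clusters the mean ran from 85.0 CPM in I8 to 155 CPM in I3, a ratio of 1.83, and no cluster differed from its neighbour in this order by more than 1 SD of the difference over their shared libraries. Some clusters of a class nevertheless kept their order in every library, though these pairs were chosen with the levels known. Adar was lower in I5 than in I6 in 9 of 9 libraries (92.3 CPM ± 23.3 against 140 CPM ± 26.2). In S2, the skeletal cluster with the most Rbfox3, Adar was lower than in S1 and S3 pooled in 9 of 9 libraries. The ratio was 0.832 ± 0.102. I8 lay below I3 in 8 of 8, but these were picked as the extremes of the order, and 1 I8 library was at only 11.3 CPM.

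Adarb1 followed the classes. Skeletal MNs held 173 CPM in the lowest library, 211 CPM in the median one and 277 CPM in the highest, with a mean of 224 CPM ± 35.4. Interneurons held 153 CPM ± 18.3 (135 to 187 CPM) and visceral MNs 83.8 CPM ± 12.4 (66.2 to 105 CPM). The ranges of skeletal and visceral MNs did not overlap. Within libraries the skeletal level was 2.67 ± 0.220 times the visceral level (2.35 to 2.97), and 1.45 ± 0.110 times that of interneurons, each in 9 of 9 libraries. Adarb1 was detected, with 1 corrected count or more, in 81.6% ± 11.6 of skeletal, 64.3% ± 13.2 of interneuron and 47.5% ± 14.8 of visceral nuclei. These shares were 62.3%, 47.3% and 31.7% after each nucleus was thinned to 4600 corrected counts. Median totals per nucleus before thinning were 7393, 6986 and 7519. Both rest on totals that the correction had evened within each library, so neither is a check on sequencing depth.

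**Figure D1:**
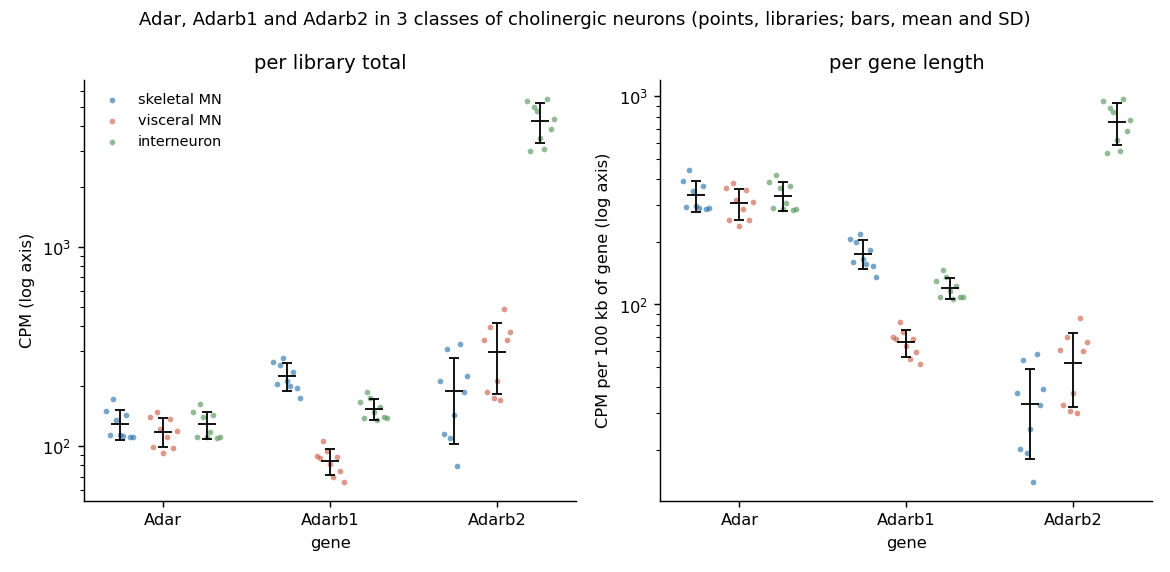
Levels of Adar, Adarb1 and Adarb2 in skeletal MNs (blue), visceral MNs (red) and interneurons (green), as CPM on the left and as CPM per 100 kb of gene on the right, both on log axes, with a point per library and the mean and SD over 9 libraries in black. Adar stays within 118 to 129 CPM on average in all classes, Adarb1 is highest in skeletal MNs, and Adarb2 is highest in interneurons, whose 9 points lie above all others.

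Among clusters, the top of the Adarb1 order held both skeletal MNs and a group of interneurons. S2 had 262 CPM ± 60.9 (lowest 181, median 268, highest 363) and I1 had 248 CPM ± 35.9 (200, 236 and 287), ahead of S1 with 211 CPM ± 25.5 and S3 with 206 CPM ± 26.7. The I1 range lay within that of S2. S2 lay above S1 and S3 pooled in 8 of 9 libraries, by a ratio of 1.25 ± 0.209. I1 lay above I2 to I4 pooled in 9 of 9, at 1.73 ± 0.240 times their level, and above skeletal MNs pooled in 9 of 9, though by a ratio of only 1.11 ± 0.120. The 10 visceral clusters lay between 54.6 CPM ± 12.8 in V8 (n = 3) and 104 CPM in V3. The interneuron clusters I5, I6 and I8 lay among them, with 69.8, 95.3 and 97.6 CPM. In only 2 of the 20 steps of the order did neighbours differ by more than 1 SD of the difference, from I1 to S1 and from I3 to V3.

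Adarb2 set the interneurons apart. Its level in them was 3022 CPM in the lowest library, 4339 CPM in the median one and 5503 CPM in the highest, with a mean of 4275 CPM ± 956. Skeletal MNs had 189 CPM ± 86.8 (79.7 to 326 CPM) and visceral MNs had 297 CPM ± 114 (171 to 485 CPM). The lowest interneuron library thus lay far above the highest of either MN class. Within libraries the interneuron level was 25.7 ± 9.46 times the skeletal level (16.3 to 43.4) and 15.7 ± 5.06 times the visceral level (11.4 to 27.3). Skeletal MNs lay below visceral MNs in 9 of 9 libraries. A class mean, however, hid a split among the interneurons themselves.

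Of the 8 interneuron clusters, 6 were high in Adarb2 and 2 were the lowest of all 21. I8 had 13462 CPM ± 2523 (10949 in the lowest of 8 libraries, 12949 in the middle and 18122 in the highest). I1 had 5370 CPM ± 729, I3 had 5046 CPM ± 930, I7 had 4917 CPM ± 668 (n = 6), I2 had 4845 CPM ± 992 and I4 had 4161 CPM ± 730. These 5 clusters lay close together and well below I8, whose level was 2.67 ± 0.246 times that of I1 to I4 pooled in 8 of 8 libraries. I5, by contrast, had 36.9 CPM ± 30.7 (3.79 to 80.0 CPM) and I6 had 56.0 CPM ± 58.1 (17.3 to 202 CPM). Pooled within a library, the 6 high clusters had 54.1 to 308 times the level of I5 and I6, with a median ratio of 134. The mean of I8 was 365 times that of I5.

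The same split showed in single nuclei. All 4247 nuclei of I1 to I4, I7 and I8 had at least 1 corrected count of Adarb2, and 98.1% of them had at least 10. They were 26.5% of all cholinergic nuclei and held 89.1% of all Adarb2 counts. The median nucleus of I1 had 32 counts (5th to 95th percentile 14 to 76) and that of I8 had 91 (43.4 to 182). In I5 and I6, 945 of 1128 nuclei had none and only 0.621% had 10 or more, so that 7.03% of the nuclei held 0.236% of the counts. Median totals were 7601 and 7489 corrected counts per nucleus in I5 and I6, against 6235 in I1 and 7398 in I8. The correction had evened totals within each library, so they do not measure sequencing depth.

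**Figure D2:**
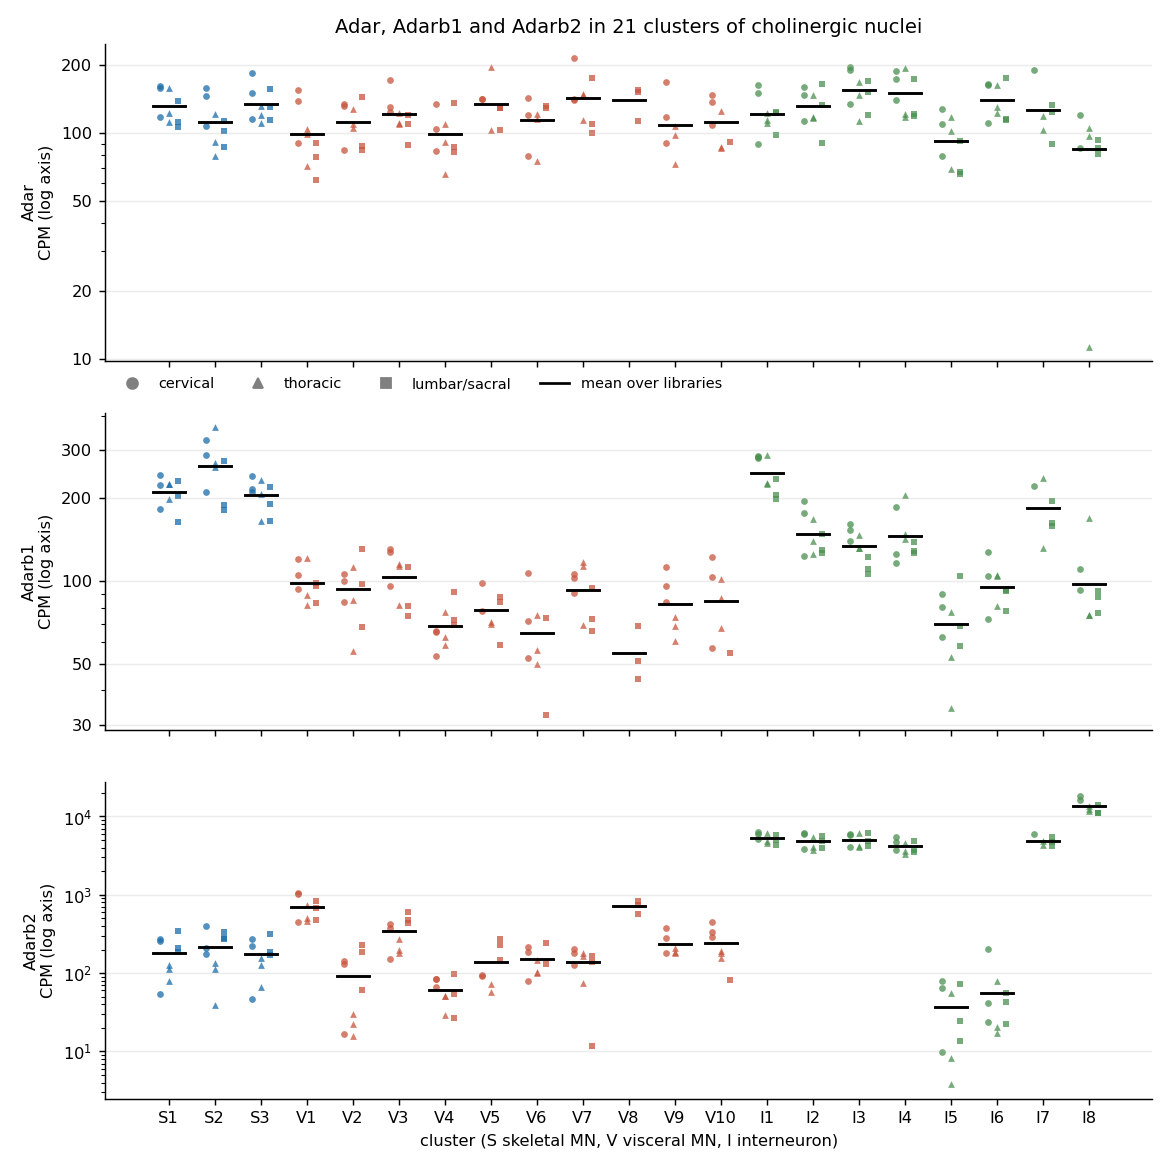
Levels of Adar, Adarb1 and Adarb2 in CPM on log axes in each of the 21 clusters, with a point per library of at least 10 nuclei (circle cervical, triangle thoracic, square lumbar/sacral) and a black line at the mean. Adar is nearly flat, Adarb1 is high in S1 to S3 and I1, and Adarb2 falls into 6 interneuron clusters at or above 3326 CPM in every library and I5 and I6 at or under 202 CPM.

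Genes of transmitter handling differed between the 2 kinds of interneuron cluster. I5 and I6 had the most Chat, the enzyme that makes acetylcholine (377 and 294 CPM, against 31.2 to 194 CPM in the other 6), and the most Slc5a7, the choline transporter (397 and 409 CPM, against 10.0 to 221 CPM). Gad1, an enzyme that makes GABA, was at 74.2 to 110 CPM in I1 to I4 and I7 and at 5.52 to 7.05 CPM in I5, I6 and I8. Slc32a1, the vesicular transporter of GABA and glycine, was at 4.66 CPM ± 2.89 in I5 and 4.14 CPM ± 3.32 in I6 (SD, n = 9), and at 28.4 to 54.0 CPM in the other 6. I8, with the most Adarb2, had 874 CPM ± 174 of Slc6a5, the glycine transporter of inhibitory terminals, against at most 122 CPM in any other cluster. I2 and I7, both high in Adarb2, were low in Chat (53.0 and 31.2 CPM). The sum over 4 inhibitory markers was 272 to 362 CPM in interneurons as a class, 21.5 to 38.7 CPM in skeletal MNs and 26.5 to 72.0 CPM in visceral MNs.

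**Figure D3:**
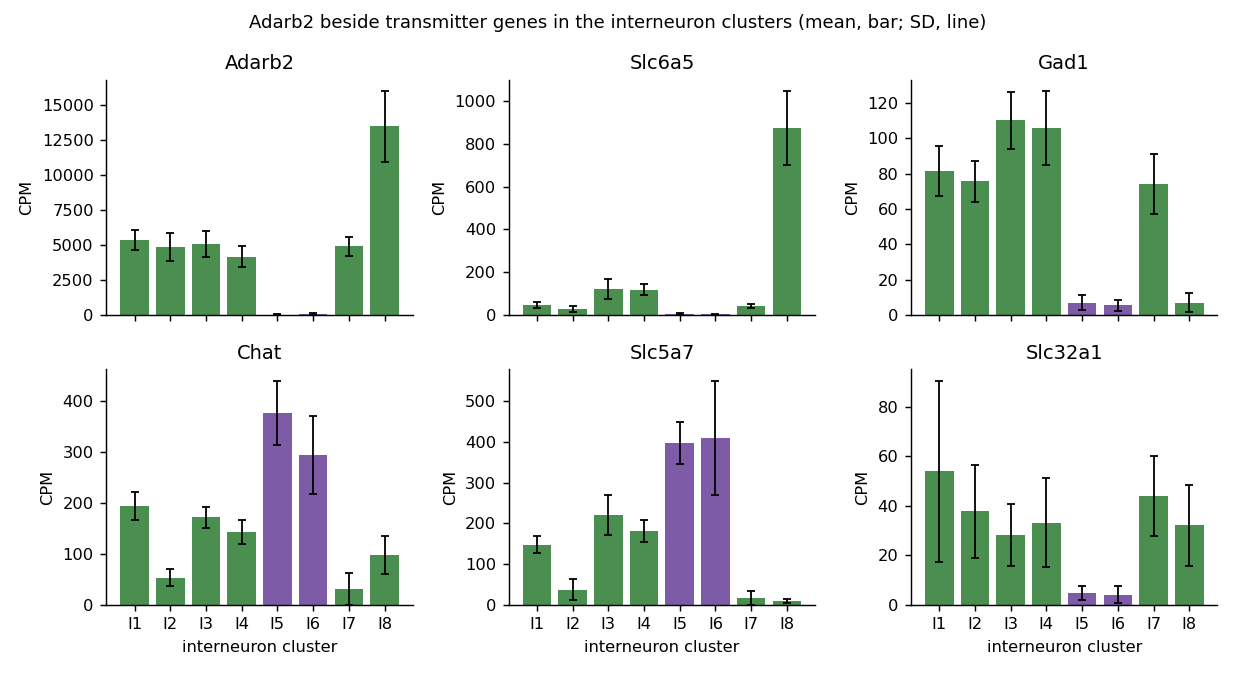
Mean level in CPM (bars, SD over libraries as lines) of Adarb2, Slc6a5, Gad1, Chat, Slc5a7 and Slc32a1 in interneuron clusters I1 to I8, with I5 and I6 in purple. Adarb2 is near 0 on this scale in I5 and I6, where Chat and Slc5a7 are highest, and both Adarb2 and Slc6a5 peak in I8.

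Motor neurons carried low but uneven levels of Adarb2. V8, found with at least 10 nuclei only in the 3 lumbar/sacral libraries, had 574, 733 and 833 CPM, and V1 had 454 CPM in the lowest library, 688 CPM in the median one and 1064 CPM in the highest. V1 lay above the skeletal clusters pooled in 9 of 9 libraries, at 3.99 ± 1.17 times their level, and 95.2% ± 4.2 of its nuclei had a count. V3 followed with 346 CPM ± 156, while V2 had 92.1 CPM ± 80.6 and V4 60.2 CPM ± 24.4. The skeletal clusters S2, S1 and S3 followed each other without a step beyond the spread, with 217, 183 and 174 CPM. Doublets made up 4 of 22 S1, 4 of 39 S2 and 12 of 48 S3 nuclei with 10 or more counts. In V1 they were 2 of 150. A low level can also come from RNA set free in the suspension, which was not tested. I5 and I6 of the same library are given beside it. They were the lowest of all clusters for Adarb2, so other groups lie above them by that choice. The pooled level of I5 and I6 was 46.4 CPM ± 33.9. A count was found in 12.4% ± 9.9 of I5 and 20.7% ± 10.1 of I6 nuclei, against 44.7% ± 11.8 in skeletal MNs and 55.1% ± 6.1 in visceral MNs. Skeletal MNs had 5.03 ± 2.39 times the level of I5 and I6 in their own library (2.49 to 10.2) and visceral MNs 8.47 ± 4.73 times (3.21 to 18.5), above it in 9 of 9 libraries. V2 and V4 were nearer to I5 and I6, with a count in 25.1% and 25.9% of nuclei, and the level of V4 was within the spread of I6.

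Nuclear counts of a long gene include its introns, so the 3 genes were also set side by side per length. This takes counts to grow with length, which was not tested. Per 100 kb of gene, the CPM of Adar were 335 (skeletal), 307 (visceral) and 333 (interneuron). In the same order Adarb1 had 175, 65.7 and 120, and Adarb2 had 33.4, 52.5 and 756. On this scale Adar led in both MN classes and Adarb2 led in interneurons, though Adarb2 in I5 was at only 6.52 CPM per 100 kb. By CPM alone Adar was lowest of the 3 in skeletal MNs, at 129 against 224 for Adarb1 and 189 for Adarb2. In visceral MNs it lay between Adarb1 and Adarb2, at 118 against 83.8 and 297.

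Nuclei differed in which of the brain-enriched pair they held. In skeletal MNs, 45.4% of nuclei had Adarb1 but no Adarb2 count, 36.2% had both, 8.51% had Adarb2 alone and 9.91% had neither (means of 9 libraries). Interneurons turned this about, with 54.6% for both, 26.3% for Adarb2 alone and 9.65% for Adarb1 alone. Visceral MNs were spread over all 4 states, at 20.5% for Adarb1 alone, 27.1% for both, 28.0% for Adarb2 alone and 24.5% for neither. Cluster I1 had both in 78.5% of nuclei, and I5 had Adarb1 alone in 39.3% and neither in 48.3%. V8 stood at the other end of the MNs, with Adarb2 alone in 62.4%, ahead of V1 with 41.6%. V8 rests on 3 lumbar/sacral libraries with median totals of 4712 to 7175, whereas V1 includes libraries of up to 16127. Thinned to 4600 counts, Adarb1 was found in 35.1% of V1 and 25.1% of V4 nuclei, down from 55.6% and 42.1%. These shares depend on depth, and a nucleus with no count may still hold the transcript.

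**Figure D4:**
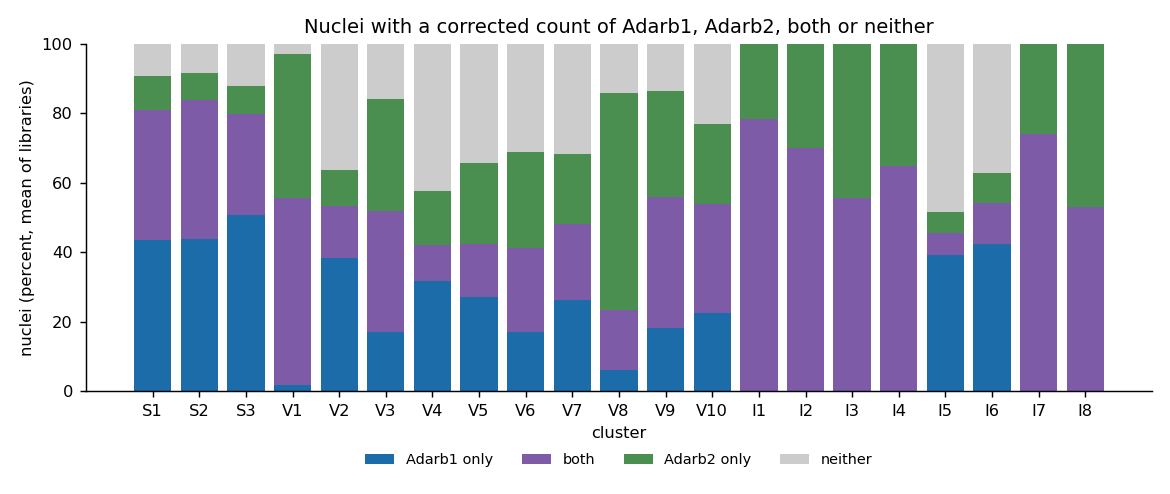
Percent of nuclei in each of the 21 clusters (mean of libraries) with at least 1 corrected count of Adarb1 only (blue), of both Adarb1 and Adarb2 (purple), of Adarb2 only (green) or of neither (grey). Nuclei with Adarb1 only are frequent in S1 to S3 (45.4% of skeletal MNs) and absent from the 6 interneuron clusters where every nucleus had Adarb2.

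Other genes varied over the clusters much as the 3 did. Likeness was Pearson's r between log2(CPM + 5) values over 21 clusters, among 10842 genes, and clusters share libraries. Adarb2 was most like Rgs3 (r = 0.91), Slc32a1, the vesicular transporter of GABA and glycine (0.90), Nxph2 (0.89), Lamp5 (0.87) and Slc6a5 (0.86). Adarb1 was most like Focad (0.86), Serhl (0.85), Gpatch8 (0.83), Tbc1d5 (0.83) and Abhd12 (0.82). Adar was most like Papola, a poly(A) polymerase (0.90), Dmxl1 (0.87), Strn3 (0.86), Cdc73 (0.85) and Zdhhc17 (0.82). Among themselves the 3 genes were less alike, at 0.27 for Adar and Adarb1, 0.14 for Adar and Adarb2, and 0.40 for Adarb1 and Adarb2.

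Regions and sexes played no part in the choice of the genes, so they were tested, over library sums of each class with limma and Benjamini-Hochberg adjustment over all genes (adjusted p under 0.05). None of the 3 genes passed in any class or comparison. Lumbar/sacral libraries against the mean of cervical and thoracic ones gave calls for 0.01% of 9999 genes (skeletal), 4.27% of 10031 (visceral) and 0.051% of 9805 (interneuron). Cervical against thoracic libraries gave calls for 0% of genes in all 3 classes, with 607, 160 and 189 genes at an unadjusted p under 0.05 in the same order. Without replicate 2, 1 gene was called in skeletal MNs and 0 in the other classes, with 382, 539 and 419 genes at an unadjusted p under 0.05 in limma. The authors describe running their correction on each barcoded region apart. Totals per nucleus, however, lay in separate bands in cervical replicates 1, 2 and 3 (5492 to 7739, 12685 to 16554 and 8616 to 10852 corrected counts). The step may therefore have differed by library. It cannot be told apart from region, nor from library or the pools of the sexes. In class sums alone, fewer nuclei of a cluster and less RNA per nucleus cannot be told apart. Shares of V8 and of I5 and I6 are therefore given below for Adarb2.

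Adarb2 came nearest to a regional difference. Visceral MNs had 485, 339 and 372 CPM in the lumbar/sacral libraries, 341, 186 and 396 CPM in the cervical ones and 175, 211 and 171 CPM in the thoracic ones. All lumbar/sacral values lay above all thoracic ones and overlapped the cervical ones. How many of all genes had their regions so apart is not given here. The lumbar/sacral level was higher by 0.74 on the log2 scale (SE 0.23), with an adjusted p of 0.139 in limma. Cluster V8, with its 713 CPM ± 130 of Adarb2, made up 33.4%, 25.8% and 32.4% of visceral nuclei in the lumbar/sacral libraries and at most 0.279% elsewhere. Without V8 the lumbar/sacral values were 311, 206 and 276 CPM, and the difference was 0.16 (SE 0.23, adjusted p 0.960 in limma).

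**Figure D5:**
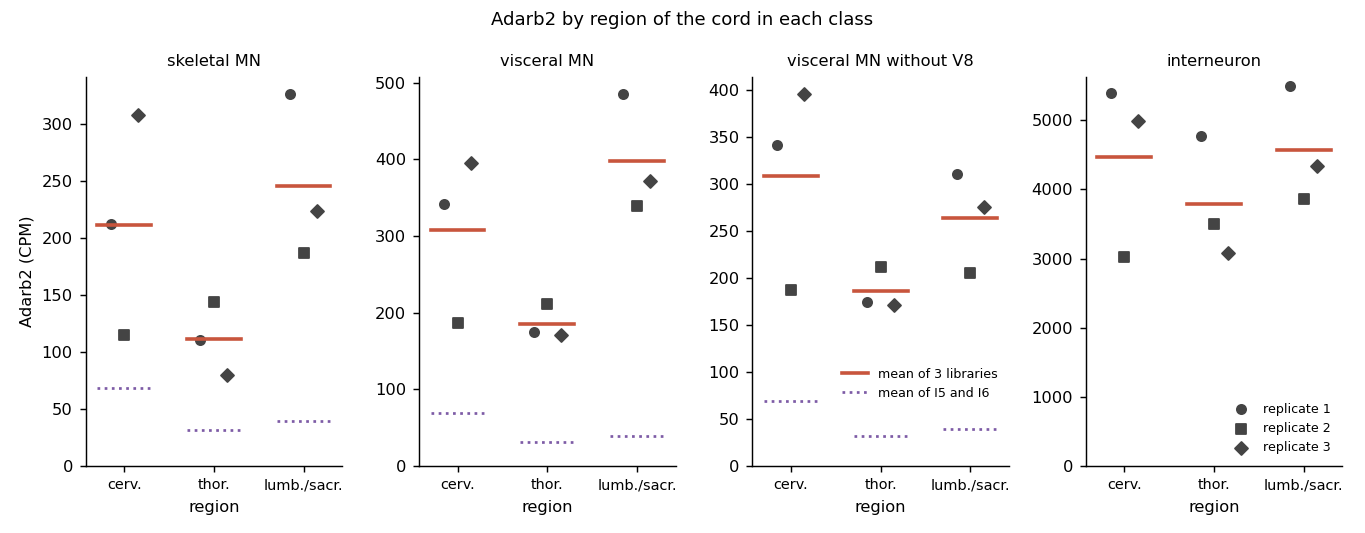
Adarb2 in CPM by region in skeletal MNs, visceral MNs, visceral MNs without cluster V8, and interneurons, with a marker for each replicate, an orange line at the mean of 3 libraries and, in the MN panels, a dotted line at the mean level in I5 and I6. The 3 lumbar/sacral points of visceral MNs, at 339 to 485 CPM, fall to 206 to 311 CPM without V8.

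Skeletal MNs showed a like order with wide spread. Adarb2 was at 326, 187 and 223 CPM in lumbar/sacral libraries, at 212, 114 and 307 CPM in cervical ones and at 110, 144 and 79.7 CPM in thoracic ones, a difference of 0.69 (SE 0.31, adjusted p 0.900) for lumbar/sacral against the others. The summed level of 12 glial and vascular markers in skeletal MNs was 124 to 131 CPM in lumbar/sacral, 107 to 118 CPM in cervical and 108 to 121 CPM in thoracic libraries, with none of them at 0, and the level of Adarb2 in I5 and I6 was 59.8, 18.4 and 39.6 CPM, 64.3, 17.8 and 123 CPM, and 40.6, 39.2 and 14.8 CPM in the same order of regions. Their part in the result was not tested. In interneurons Adarb2 differed by 0.17 (SE 0.24, adjusted p 0.9997 in limma). I5 and I6 made up 11.5%, 15.1% and 16.8% of interneuron nuclei in lumbar/sacral libraries. Their shares were 26.3%, 28.6% and 24.9% in cervical and 23.1%, 29.0% and 31.2% in thoracic ones. I1 to I4, I7 and I8 pooled had 6285, 4593 and 5282 CPM of Adarb2 in lumbar/sacral libraries. They had 7424, 4236 and 6675 CPM in cervical and 6261, 4966 and 4541 CPM in thoracic ones. The part of these shares was not tested. Cervical minus thoracic libraries gave differences of 0.83 (skeletal), 0.65 (visceral) and 0.22 (interneuron), none past the threshold (adjusted p 0.719, 0.945 and 0.937), and without replicate 2, whose region labels the Hox genes went against, 1.40, 1.07 and 0.44 (adjusted p 0.801, 0.137 and 0.734).

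Adar and Adarb1 moved less. Adarb1 in skeletal MNs was at 234, 194 and 173 CPM in lumbar/sacral libraries, at 263, 204 and 255 CPM in cervical and at 277, 211 and 201 CPM in thoracic ones, so all regions overlapped. The difference for lumbar/sacral was −0.22 (SE 0.15, adjusted p 0.900). For Adar it was −0.11 (SE 0.15) in skeletal MNs and likewise −0.11 in interneurons. Cervical libraries were higher than thoracic ones in Adar in all 14 clusters present in every library, and likewise in Adarb2, each also in 14 of 14 without replicate 2, but these clusters come from the same 6 libraries and no class difference passed the test.

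The sexes were compared as a male and a female pool in each region, so that sex and pool cannot be told apart, and 0.0725%, 0.0513% and 0.0521% of genes were called in skeletal MNs, visceral MNs and interneurons. Both libraries whose region labels the Hox genes went against are of the male pool. Region is a term of this fit, and the effect of exchanged labels on it was not tested. Adar in visceral MNs was at 98.2, 91.7 and 98.2 CPM in the male and at 147, 111 and 119 CPM in the female libraries of cervical, thoracic and lumbar/sacral cord. Every male value lay below every female one, which did not hold for Adar in skeletal MNs or interneurons. How many of all genes were so ordered is not given here. The difference, male minus female, was −0.36 (SE 0.11), with an adjusted p of 0.312 in limma. In skeletal MNs it was −0.19 (SE 0.16), and Adarb1 and Adarb2 had no such order in any class.

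Other genes of the pathway were taken from 5 lists with 71 genes, of which 66 are in the matrix. They were compared between classes with the library as a term (called at an adjusted p under 0.05 and a log2 difference of at least 1). The classes were drawn from the expression of these same nuclei, so p-values between them can be too small. Calls are therefore read only beside the share of all genes. Of 50 listed genes tested, 1 was higher and 0 were lower in interneurons than in MNs, where 6.59% of all 11292 genes tested were called, 3.32% higher and 3.27% lower. Between skeletal and visceral MNs 4 listed genes were higher and 4 lower, where 11.8% of all genes were called, 6.22% higher and 5.59% lower. Of the 22 known editing targets tested, 4 were higher in skeletal than in visceral MNs, 3 were lower and 15 were not called, with a median difference of 0.08. The 4 were Gria3, an AMPA receptor subunit (log2 difference 3.90, SE 0.19), Kcna1, a potassium channel (2.60, SE 0.11), Cacna1d, a calcium channel (1.47, SE 0.10), and Nova1, a splicing factor (1.34, SE 0.063). The 3 that were lower were Grik1, a kainate receptor subunit (−2.58, SE 0.21), Htr2c, a serotonin receptor (−1.20, SE 0.20), and Flna, which crosslinks actin (−1.12, SE 0.061), each with an adjusted p of 1.91e-05 or less in limma. Grik1 was also the single listed gene called in interneurons (higher by 1.67, SE 0.18).

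Gria2, the main target of Adarb1, was lowest in the class where Adarb1 was highest. It had 523 CPM ± 71.4 in skeletal MNs (427 to 662 CPM), 857 CPM ± 107 in visceral MNs (738 to 1082 CPM) and 774 CPM ± 68.5 in interneurons (611 to 838 CPM). The ranges of skeletal and visceral MNs did not overlap, and their difference of −0.71 (SE 0.069, adjusted p 9.71e-09 in limma) was under the size needed for a call. The p-value bears the limit given above, as the classes were drawn from these nuclei. Of the clusters, V8, where Adarb1 was lowest, had 1583 CPM of Gria2, while I1 and S2, where Adarb1 was highest, had 1097 and 682 CPM. Among other targets, in the order skeletal, visceral and interneuron, Grik2 had 2064, 1281 and 1529 CPM, Gabra3 had 106, 121 and 105 CPM, and Cyfip2 had 129, 111 and 136 CPM. Blcap was low throughout, at 17.2, 16.8 and 15.97 CPM.

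The remaining lists held few changes. None of the 12 proteins that bind or process double-stranded RNA, and none of the 11 tested regulators and importers, was called between classes. Of 12 other deaminases, 10 are in the matrix, and only Adat1, which edits transfer RNA (32.9, 32.3 and 42.3 CPM), and Apobec4 (15.5, 10.0 and 16.2 CPM) had 10 CPM or more in all 3 classes. Of the 9 sensors of double-stranded RNA in the matrix, 8 stayed at or under 7.82 CPM in every class, among them Ifih1, which encodes the sensor MDA5 (0.228, 1.32 and 0.289 CPM). The adaptor Mavs, at 2.46 CPM in skeletal against 11.4 CPM in visceral MNs, was the only sensor gene called (−1.09, SE 0.090). Between regions, 2 of 47 listed genes were called in visceral MNs, where 4.27% of all genes were, both targets, with Gria3 higher by 1.34 (SE 0.28, adjusted p 0.0323) and Htr2c lower, at −1.07 (SE 0.20, adjusted p 0.0193), in lumbar/sacral libraries. The count was 0 without lumbar/sacral replicate 1 or 2, without cervical replicate 3, without all of replicate 1 or of replicate 3, and with equal weight of clusters, and it was 4 with the replicate number as a block. None was called in skeletal MNs or interneurons, between cervical and thoracic cord or between the sexes.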

How the data were processed

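Single-nucleus libraries of 9 samples were aligned by the authors against a GRCm38 (mm10) reference that included introns, with Cell Ranger 3.1.0, and outlying nuclei were removed. The authors describe normalization with SCTransform in Seurat, each barcoded region apart. The deposited values were taken to be its corrected counts, whole numbers but no raw counts, and were treated as a score. The labels do not name the step they came from, and the step may have differed by library, as said above. The authors deposited the class and cluster of each nucleus. Whether strand was used in counting is not given in the sources used here. Columns of the authors' own comparisons were not used.

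Corrected counts were summed per library and class or cluster with at least 10 nuclei and scaled to CPM. Median totals of 4712 to 16127 per nucleus set the precision, and shares were also computed at 4600 counts per nucleus, which left out 8.63% of nuclei. Region and sex tests fitted log2(CPM + 5) with limma (version 3.58.1, R 4.3.3, trend on), keeping genes that reached 10 CPM in 3 sums or more, over 3 libraries a region, or 6 libraries with region as a term for sex. The lumbar/sacral fits were first tested on simulated sums drawn independently per library. These held no shared pools, so they say nothing of the pairing or of the sex and class fits. Region p-values measure the spread between libraries of a region, which come from 3 pools of mice. The same pools gave all regions, and the main fit takes the libraries as independent. Sex p-values measure how the gap between the male and the female pool varies over regions, not the spread between pools. Class p-values, with library as a term, measure the spread within libraries. Same-numbered libraries are the same pool of mice divided by region. Their deviations from the region means correlated at −0.22 to 0.87 in skeletal MNs, −0.14 to 0.88 in visceral MNs and −0.19 to 0.92 in interneurons, against −0.77 to 0.58, −0.78 to 0.60 and −0.82 to 0.61 between other numbers. Scrublet in scanpy 1.11.5 called 164 of 16042 nuclei (1.02%) as doublets, which were kept. Neighbours in an order were said not to differ where the mean difference over shared libraries was under 1 SD of these differences. Python 3.11.15, numpy 2.4.6, pandas 2.3.3 and scipy 1.17.1 were used. Sequences and positions came from GENCODE vM21 on GRCm38.

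The 3 genes, the lists and the tests were chosen with earlier results of these data known. Named genes were the 3 enzymes, the 5 genes most like each over clusters, 9 textbook targets (Gria2, Grik2, Gabra3, Htr2c, Cacna1d, Kcna1, Cyfip2, Blcap and Flna), and up to 4 other listed genes called per comparison. Hoxa9, Chrnb2, Adat1, Apobec4 and Ifih1 fall outside this rule and were named after their values were seen, and marker genes are named from the marker lists. Marker lists covered neurons, the 3 classes, excitatory and inhibitory neurons, and 13 glial and vascular genes, 12 of them in the matrix. Alternatives were median-of-ratios scaling, pseudocounts of 1 and 20, no filter, a replicate block, equal weight of clusters, exclusion of doublets and leaving out each library or replicate. Sums without V8 and a test of class by region were added after seeing the data.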

Additional observations from a re-analysis of the deposited data

Results flagged for a closer look

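The lumbar/sacral effect on Adarb2 differed between classes by a test added after the data were seen. It was smaller in interneurons than in visceral MNs by 0.58 on the log2 scale (interneuron minus visceral −0.58, SE 0.16, adjusted p 0.0345 in limma over 11292 genes, of which 918 were called). All lumbar/sacral visceral values lay above all thoracic ones, while interneuron values of the regions overlapped. The share of all genes with such an order is not given here. I5 and I6, low in Adarb2, made up less of the interneurons in lumbar/sacral libraries, and their part was not tested. Without cluster V8 the difference between classes was 0.014 (adjusted p 0.986 in limma). The call was also lost with median-of-ratios scaling (adjusted p 0.0675), with no filter (0.0755), without any 1 of the lumbar/sacral libraries (0.116 to 0.142), without cervical replicate 1 (0.0721) or 2 (0.0560), without thoracic replicate 1 (0.0691), and without all of replicate 1 (0.323) or of replicate 3 (0.0826).

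A single library stood far from the others in 4 of 69 groups, each a gene in a cluster or class with 4 libraries or more, and chance alone marks about 1 group in 20. Adar in I8 was at 11.3 CPM in thoracic replicate 3, where the nearest of 8 libraries had 80.5 CPM, and in the same library and cluster Adarb1 was at 170 CPM against 111 CPM in the nearest. Sums of as few as 10 nuclei were kept, so such a low value can rest on very few counts. Adar in V5 was at 197 CPM in thoracic replicate 1, next to 142 CPM. Adarb2 in I6 was at 202 CPM in cervical replicate 3, next to 78.8 CPM.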

How the results depend on the processing

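None of the 3 genes passed the threshold between regions or sexes within a class under any alternative, the replicate block included. With the replicate block, the lumbar/sacral difference of Adarb2 in visceral MNs was 0.74 (adjusted p 0.0865), and the block, which pairs libraries of one pool, changed no call of the 3 genes. The difference between classes in the lumbar/sacral effect on Adarb2 (interneuron minus visceral, −0.58) lost its call with median-of-ratios scaling (−0.51, adjusted p 0.0675) and with no filter (−0.58, adjusted p 0.0755), turned to 0.014 without V8, and ranged from −0.68 to −0.43 when libraries or replicates were left out. Interneuron minus skeletal (−0.53, adjusted p 0.196) gained a call only without thoracic replicate 2 (−0.65, adjusted p 0.0412), and its range over alternatives was −0.65 to −0.31. Listed genes lower in interneurons numbered 1 with a pseudocount of 1 (0 with 5), and those lower in skeletal than visceral MNs numbered 6 with a pseudocount of 1, 2 with 20 and 5 with no filter, against 4. Those higher numbered 5 with a pseudocount of 1, against 4. Calls over all genes moved from 744 to 1074 and 372 in interneurons against MNs, and from 1333 to 1768 and 669 in skeletal against visceral MNs, with pseudocounts of 1 and 20. Lumbar/sacral calls in visceral MNs moved from 428 to between 0 (without replicate 3) and 737 (replicate block), and listed genes among them from 2 to between 0 and 4, with 1 under median-of-ratios scaling. They moved from 1 to between 0 and 12 in skeletal MNs and from 5 to between 0 and 44 in interneurons. Calls by sex numbered 7 in skeletal MNs, and came to 1314 and 1329 without cervical replicates 2 and 3. The same omissions took those in visceral MNs from 5 to 362 and 425, and those in interneurons from 5 to 1251 and 1331. Each of these counts was 0 without lumbar/sacral replicate 3. Listed genes called by sex went from 0 to 5 in interneurons without either cervical library, and to 2 and 1 in skeletal MNs. Median-of-ratios scaling moved the median of all genes in skeletal MNs from 0.12 to −0.01 for lumbar/sacral and from −0.13 to 0.01 for cervical minus thoracic libraries. Class levels of the 3 genes moved by less than 1 SD under every alternative, and of cluster levels V10 moved with at least 25 nuclei a sum (Adarb1 from 84.9 to 113 CPM, Adarb2 from 240 to 367 CPM). With at least 25 nuclei a sum, the highest and lowest clusters of Adar were V7 and I5, not I3 and I8, and I5 was also its lowest without replicate 3. The lowest cluster of Adarb2 was I6, not I5, without replicate 3, and the highest of Adarb1 was I1, not S2, without replicate 1. Shares of nuclei moved in 7 of 9 class values with thinning, so they are bound to the number of corrected counts per nucleus. The causes were not tested.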
